A study of Mus musculus with 4 samples.

Results

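The interleukin-1 family is a group of related cytokines that skin cells make when the epidermis is damaged or inflamed. Its 10 members on these arrays were taken by gene symbol (Il1a, Il1b, Il1rn, Il18, Il33, Il1f5, Il1f6, Il1f8, Il1f9 and Il1f10), and they have 17 of the 44170 targets and are 10 of the 24171 gene symbols measured. Each group was 1 array of RNA from back skin of male BALB/c mice, 8 weeks old, to which creams had been applied for 5 days. The ATRA+NIC group received a 0.1% all-trans retinoic acid cream and a nicotinamide cream, the ATRA group the retinoic acid cream alone, the NIC group the nicotinamide cream alone, and the Control group an oil/water cream. No genotype beyond the strain was given, nor the strength of the nicotinamide cream, and it is not stated whether an array holds the RNA of 1 mouse or of a pool, or whether the groups were separate mice or areas of skin. With 1 array a group, a difference between 2 arrays has no replicate spread behind it and no test.

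IL-1α, IL-1β, IL-33 and the IL-36 cytokines signal through receptors that pair a ligand-binding chain with a shared accessory chain, and then through MyD88 to NF-kB. IL-18 uses a related receptor pair of its own. In skin, keratinocytes store IL-1α and IL-33 and release them on injury, IL-1β and IL-18 are cut to their active form by caspase-1, and the IL-36 cytokines, which keratinocytes secrete, are known for their part in psoriasis-like inflammation. Antagonists of the same family occupy the receptors without signalling: the product of Il1rn blocks the IL-1 receptor and that of Il1f5, also called Il36rn, blocks the IL-36 receptor. Retinoic acid, a form of vitamin A, switches genes on through receptors in the nucleus. Nicotinamide belongs to the B3 vitamins.

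On these arrays the gene of the alarmin IL-33 and the gene of IL-1β were higher on both arrays with retinoic acid than on both arrays without it, Il33 by 4.58-fold and 7.48-fold and Il1b by 3.04-fold and 2.72-fold. The genes of the IL-36 agonists were lowest on the NIC array, and Il1f10 was highest on the 2 arrays with nicotinamide. Il1a, Il18 and Il1f5 differed by less than 2-fold in every difference between arrays. The level of a target is given as its deposited intensity on a linear scale, and a difference is the log2 intensity of one array minus that of another, so that 1 stands for 2-fold. Random control probes read from 33.99 to 36.3 on the 4 arrays, and a target was taken as above background at 2 times that level. The median target read between 102 and 105. Levels of different targets cannot be set against each other, since probes differ in brightness.

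**Figure D1:**
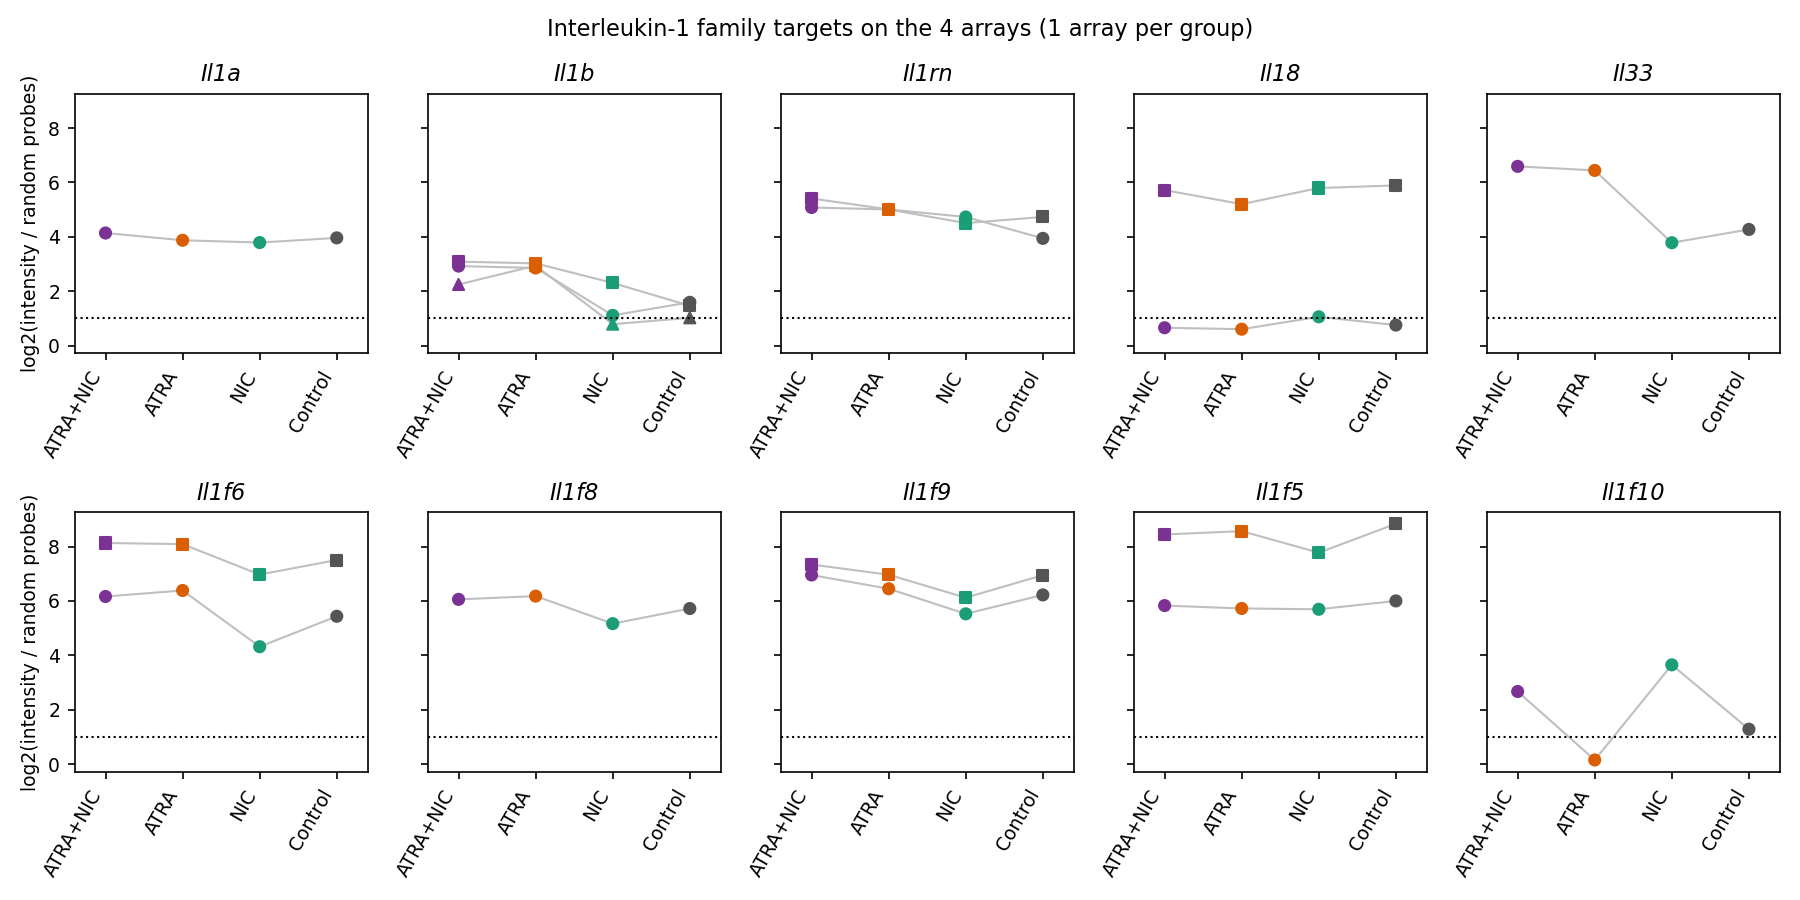
Intensity of each target of the 10 members on the 4 arrays, as the log2 of its ratio to the random probes of the same array; each marker shape is 1 target, lines join its values, and the dotted line is 2 times the random level. Il33 and Il1b sit higher on ATRA+NIC and ATRA than on NIC and Control, Il1f6, Il1f8 and Il1f9 are lowest on NIC, and Il1f10 is highest on NIC.

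Il33, the gene of the nuclear alarmin that acts on ST2-bearing mast cells and type 2 lymphocytes, was measured by 1 target on chromosome 19 (chr19:30020279-30035207, build MM9 of the array). It read 3500 on ATRA+NIC and 3027 on ATRA, against 468 on NIC and 661 on Control. Both arrays with retinoic acid lay above both without it, and the ranges do not overlap. The share of all kept symbols separated in this way was not counted, here or for the members below. For a looser measure, 29.5% of all kept symbols were above 0 in both retinoic acid differences. The difference was 2.19 for ATRA minus Control and 2.90 for ATRA+NIC minus NIC, 2 differences that share no array. Of all 14552 symbols kept after a filter on dim targets, 0.385% were at least as much higher in the first of these and 0.234% in the second. Counting both directions, 1.61% and 1.20% were at least as far apart. For nicotinamide the difference was -0.50 without retinoic acid and 0.21 with it.

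The 2 start sites that RefSeq lists for Il33 are shown because this member had the highest difference for retinoic acid. Each run holds the 250 bases before the start, 5′ to 3′ on the plus strand of build GRCm38.p6, at chr19:29924863-29925112 for the first site and chr19:29945540-29945789 for the second. Capitals mark TATAAA, read on the gene's strand, and matches on either strand to TTGCNNAA, the C/EBP motif.
Il33 first start site: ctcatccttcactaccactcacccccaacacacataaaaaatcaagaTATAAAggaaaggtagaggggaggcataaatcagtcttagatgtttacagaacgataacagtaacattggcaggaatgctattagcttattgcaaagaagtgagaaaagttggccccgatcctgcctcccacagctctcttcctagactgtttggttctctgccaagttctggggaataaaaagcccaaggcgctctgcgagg
Il33 second start site: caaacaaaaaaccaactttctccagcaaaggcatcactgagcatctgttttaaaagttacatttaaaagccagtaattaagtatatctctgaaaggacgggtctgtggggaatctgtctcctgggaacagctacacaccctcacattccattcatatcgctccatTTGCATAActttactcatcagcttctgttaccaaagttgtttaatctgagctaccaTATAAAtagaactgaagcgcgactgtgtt
The second site has TATAAA starting 29 bases before it, where a TATA box would lie, and the C/EBP letters TTGCATAA 85 bases before it. The first site has TATAAA 203 bases before it. Of 32851 mouse windows of this length, 7.59% hold TATAAA and 9.56% the C/EBP letters. A match is a description of the letters and was not tested for binding.

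Il1b encodes IL-1β, the secreted agonist of the IL-1 receptor made mostly by myeloid cells. Its gene intensity, the mean of 3 targets on the log2 scale, was 245 on ATRA+NIC and 267 on ATRA, against 89.8 on NIC and 87.8 on Control. The groups with and without retinoic acid do not overlap, and the differences were 1.60 for ATRA minus Control and 1.45 for ATRA+NIC minus NIC. For nicotinamide they were 0.03 without and -0.13 with retinoic acid. The 3 targets lie between 129190315 and 129196856 on chromosome 2 (MM9) and had the same direction, from 1.29 to 1.94 for ATRA minus Control and from 0.88 to 1.91 for ATRA+NIC minus NIC. The target that gave 0.88 read 308, 283, 168 and 94.5 on ATRA+NIC, ATRA, NIC and Control, so on it NIC lay above Control. Another read 58.7 on NIC, under 2 times the random level there.

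Neutrophils, a source of IL-1β in inflamed skin, were followed by 12 marker genes, 11 of which were on the array. Their summed intensity was 53104 on ATRA+NIC and 54773 on ATRA, against 5596 on NIC and 15684 on Control. Nearly all of that sum is S100a8 and S100a9, which keratinocytes also make. Without them, an alternative chosen after the values were seen, the other 9 markers summed to 917 on ATRA+NIC and 1848 on ATRA, against 732 on NIC and 802 on Control. Of these 9, 8 passed the filter on dim targets, 4 of them only through the arrays with retinoic acid, so these 4 had to differ in order to be counted. The median difference for ATRA minus Control was 1.81 over the 9 and 1.64 over the 8 kept, and for ATRA+NIC minus NIC 0.84 and 0.64. Of the 8 kept, 4 were above 0 in both retinoic acid differences. Csf3r, the receptor for granulocyte colony-stimulating factor, had 1.47 for ATRA minus Control and 1.29 for ATRA+NIC minus NIC. Cxcr2, a neutrophil chemokine receptor, had 0.71 and -0.45, and Camp, a granule protein gene, 1.95 and -0.67. These 3 were chosen after their values were seen. Csf3r was not above background on NIC and Control. Camp was above background on ATRA only, so its -0.67 sets 27.1 on ATRA+NIC against 43.3 on NIC, both at background. The part of neutrophils in the Il1b difference was not tested, and in bulk skin RNA fewer cells of a type and less RNA per cell cannot be told apart.

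The promoters of the 2 IL-1 agonists are shown because the genes are neighbours on chromosome 2 and differed in their readings on the ATRA arrays. Both runs are RefSeq sequence of build GRCm38.p6 on the minus strand, at chr2:129371140-129371389 for Il1b and chr2:129309973-129310222 for Il1a, with TATAAA and the AP-1 motif TGANTCA in capitals.
Il1b start site: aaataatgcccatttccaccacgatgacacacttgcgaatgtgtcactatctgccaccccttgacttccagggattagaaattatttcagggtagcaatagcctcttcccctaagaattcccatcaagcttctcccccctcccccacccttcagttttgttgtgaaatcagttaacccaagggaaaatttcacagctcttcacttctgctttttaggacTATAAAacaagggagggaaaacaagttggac
Il1a start site: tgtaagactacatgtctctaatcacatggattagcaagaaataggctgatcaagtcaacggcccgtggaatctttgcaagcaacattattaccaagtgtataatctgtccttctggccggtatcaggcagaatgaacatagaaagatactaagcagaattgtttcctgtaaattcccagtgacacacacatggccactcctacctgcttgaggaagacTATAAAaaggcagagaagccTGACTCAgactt
Both have TATAAA close to the usual place, 31 bases before the start of Il1b and 32 bases before that of Il1a. Il1a also has TGACTCA 12 bases before its start. In all, 13 windows of 9 members were searched, 2 of which (Il1rn) overlap. TATAAA was in 4 of the 13, AP-1 letters in 3 against 6.75% of all windows, and C/EBP letters in 2. AGGTCA, the half-site of retinoic acid receptors, was searched on both strands and found in 2 of the 13, in windows of Il1rn and Il1f9, against 14.0% of all windows. The NF-kB consensus was in 0 of the 13 against 7.25% of all, which says only that these letters are not in these windows.

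Il1a, the gene of the IL-1 agonist that keratinocytes hold in store, read 640 on ATRA+NIC, 510 on ATRA, 470 on NIC and 534 on Control. The ATRA array lay below Control and the ATRA+NIC array above NIC, with differences of -0.06 and 0.44. Il1rn, the receptor antagonist gene, read 1376 on ATRA+NIC and 1120 on ATRA, against 835 on NIC and 692 on Control. Its groups with and without retinoic acid do not overlap either, but both differences, 0.69 and 0.72, were under 2-fold. Of the 2 Il1rn targets, the brighter gave 0.30 for ATRA minus Control, 1.00 for ATRA+NIC minus NIC and -0.24 for NIC minus Control. The other gave 1.09, 0.44 and 0.78. The targets thus differed in size for retinoic acid and in sign for NIC minus Control. The difference of Il1rn minus that of Il1b was -0.91 for ATRA minus Control and -0.72 for ATRA+NIC minus NIC. With the brightest target in place of the mean, the second of these turns, since Il1rn then gave 1.00 and Il1b 0.88. Relative to Il1a the values were 0.76 and 0.28. Relative to the mean of both agonists they were -0.08 and -0.22, and -0.46 and 0.34 with the brightest target.

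Il18 encodes the agonist that drives interferon-γ production by T and NK cells. It read 331 on ATRA+NIC and 260 on ATRA, against 366 on NIC and 342 on Control. Both retinoic acid differences were below 0, at -0.40 and -0.15. These are means of a bright target, which read 1910, 1282, 1889 and 2031 on ATRA+NIC, ATRA, NIC and Control, and of a dim one, which was above background on 1 array only. The bright target alone gave -0.66 for ATRA minus Control and 0.02 for ATRA+NIC minus NIC.

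The 3 IL-36 agonist genes were higher on the ATRA array than on Control and higher on ATRA+NIC than on NIC. Il1f6, encoding IL-36α, read 5146 on ATRA+NIC and 5255 on ATRA, against 1701 on NIC and 3037 on Control. Il1f8, encoding IL-36β, read 2418 on ATRA+NIC and 2522 on ATRA, against 1220 on NIC and 1807 on Control. Il1f9, encoding IL-36γ, read 5146 on ATRA+NIC and 3637 on ATRA, against 1925 on NIC and 3287 on Control. In each, both arrays with retinoic acid lay above both without it, and NIC was the lowest array. The share of all kept symbols separated in this way was not counted, and 29.5% were above 0 in both retinoic acid differences. For ATRA minus Control the 3 differences were 0.79 for Il1f6, 0.48 for Il1f8 and 0.15 for Il1f9, all under 2-fold. Of all kept symbols, 7.37%, 17.5% and 41.8% were at least as much higher. The 2 Il1f9 targets gave 0.25 and, for the brighter, 0.04. For ATRA+NIC minus NIC they were 1.60, 0.99 and 1.42, and here the low NIC array is the base of the difference. NIC minus Control was -0.84 for Il1f6, -0.57 for Il1f8 and -0.77 for Il1f9. Against Control, the ATRA+NIC array was higher by 0.76, 0.42 and 0.65.

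Il1f5, the gene of the IL-36 receptor antagonist, had another pattern. It read 5109 on ATRA+NIC and 4929 on ATRA, against 3621 on NIC and 5862 on Control, so that Control was its highest array and the groups overlap. Its differences were -0.25 for ATRA minus Control and 0.50 for ATRA+NIC minus NIC. Its difference minus the mean of the 3 agonists' differences was -0.72 for ATRA minus Control and -0.84 for ATRA+NIC minus NIC, and -0.62 and -0.42 with the brightest target. For NIC minus Control it was 0.03, and -0.42 with the brightest target, and for ATRA+NIC minus ATRA -0.08. Its 2 targets gave -1.07 and -0.32 for NIC minus Control, and the brighter one read 12645, 13206, 7450 and 15662 on ATRA+NIC, ATRA, NIC and Control.

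Il1f10 encodes IL-38, a member reported to act as an antagonist. It was the 1 member at least 2-fold apart the same way in both nicotinamide differences. Its 1 target read 231 on ATRA+NIC and 38.7 on ATRA, against 427 on NIC and 83.3 on Control. The 2 arrays with nicotinamide lay above the 2 without it, and the ATRA value was near the random level of 34.8. NIC minus Control was 2.36, or 5.12-fold, and 3.00 after subtraction of the random level. ATRA+NIC was at least 3.32-fold above ATRA, taking the detection level in place of the dim ATRA value, and the measured difference was 2.58, or 4.28 after that subtraction. For retinoic acid the differences were -1.11 and -0.89, or -2.30 and -1.01 after that subtraction. With the same bound ATRA was at least 1.20-fold lower than Control. After subtraction the ATRA value fell under the floor of 10 and was set to it. The 4.28 and the -2.30 therefore depend on that floor and are not measured sizes. The target is absent from the authors' table of values, which left out targets that were dim on an array.

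**Figure D2:**
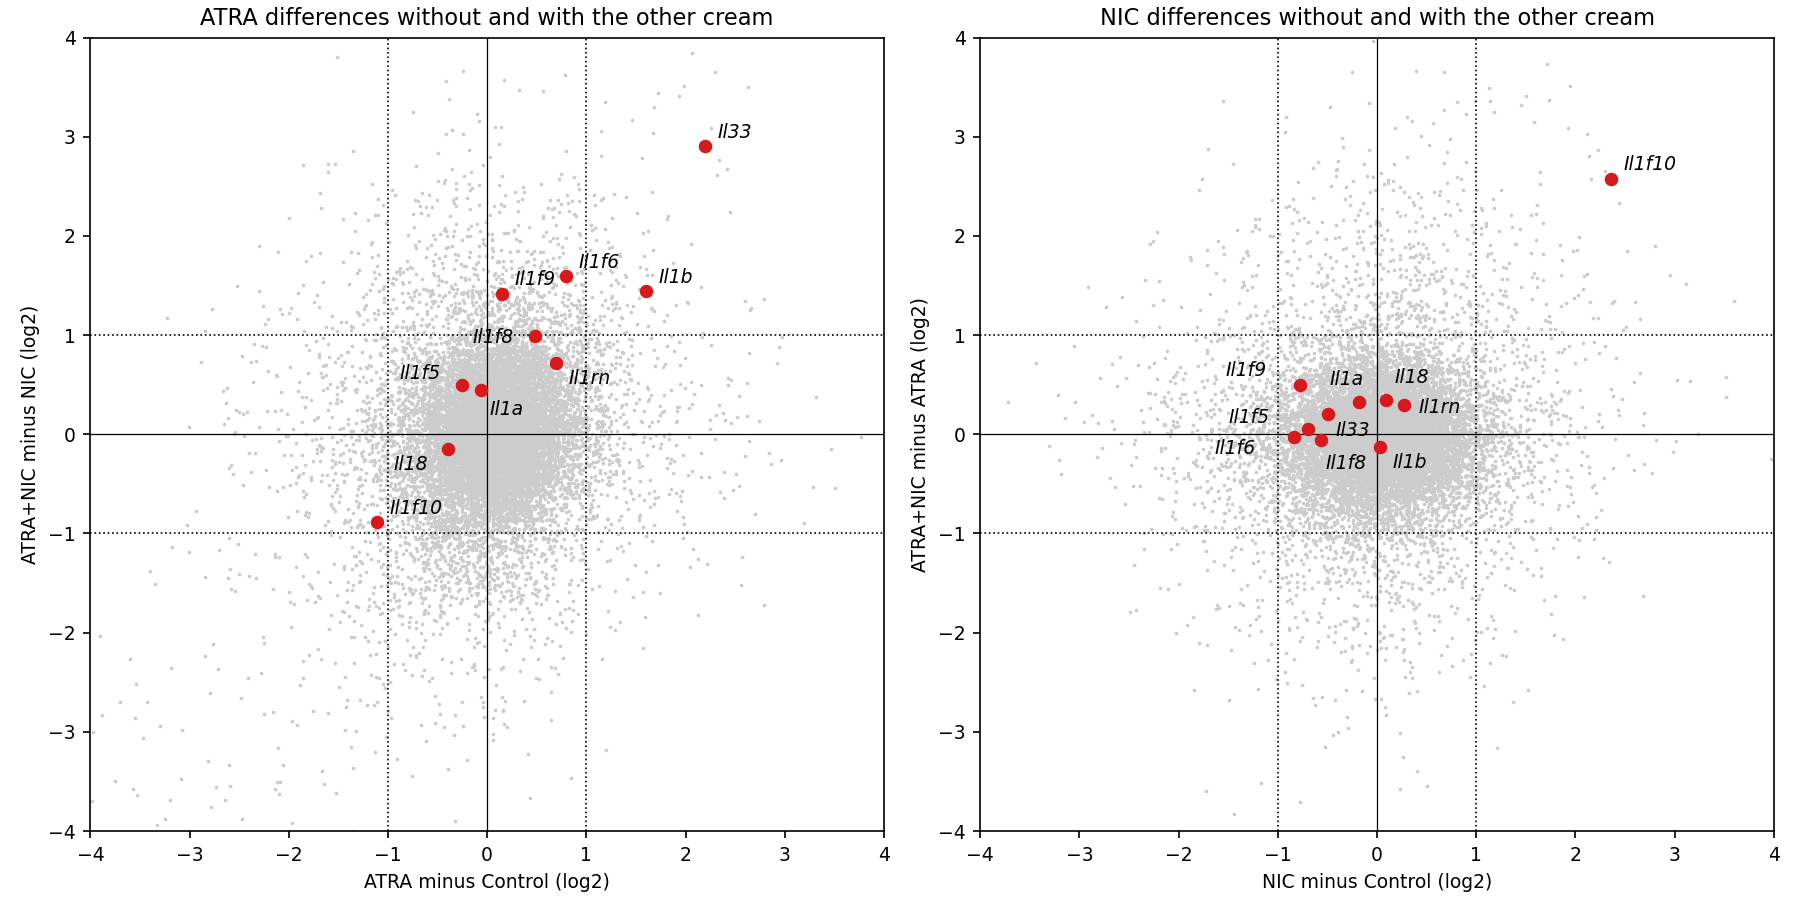
Differences of the 10 members (red) among all kept symbols (grey, 1 point a symbol) in log2 units: ATRA minus Control against ATRA+NIC minus NIC (left) and NIC minus Control against ATRA+NIC minus ATRA (right). Dotted lines mark 2-fold, axes end at 4 log2 units, and 93 and 10 symbols lie outside; Il33 (2.19 and 2.90) and Il1b (1.60 and 1.45) are beyond 2-fold on both axes on the left and Il1f10 (2.36 and 2.58) on the right, where 2.58 is set against an ATRA value that is not above background (bound, at least 1.73).

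Across the family, 2 members (Il1b and Il33) were at least 2-fold higher in both retinoic acid differences, against 0.832% of all kept symbols. No member was at least 2-fold lower in both, against 1.89%. The members were chosen with earlier results of these data known, so the shares given here are not a test. In both nicotinamide differences 1 member (Il1f10) was at least 2-fold higher, against 0.886%, and none lower, against 0.502%. All 10 members passed the filter on dim targets, but Il1b only through the 2 arrays with retinoic acid and Il1f10 only through the 2 with nicotinamide, so these 2 had to differ in order to be counted. With no filter the background of both retinoic acid differences was 0.72% higher and 1.31% lower, and that of both nicotinamide differences 0.778% higher and 0.538% lower. In single differences, 2 members were at least 2-fold higher and 1 lower for ATRA minus Control, against 4.11% and 5.48% of kept symbols. The 1 lower was Il1f10, whose ATRA value is not above background, and its bound of at least 1.20-fold is under 2-fold. For ATRA+NIC minus NIC 4 were higher (Il1b, Il33, Il1f6 and Il1f9) and 0 lower, against 6.92% and 7.59%. For NIC minus Control 1 was higher and 0 lower, against 5.33% and 5.36%, and for ATRA+NIC minus ATRA 1 was higher and 0 lower, against 5% and 4.26%. For ATRA+NIC minus Control 3 were higher (Il1b, Il33 and Il1f10) and 0 lower, against 5.81% and 7%. The median difference of the 10 members was 0.31 for ATRA minus Control, against 0.06 over all kept symbols, and 0.85 for ATRA+NIC minus NIC, against -0.0050. For NIC minus Control it was -0.34, against 0.04 over all kept symbols, and 6 of the 10 members had their lowest value on the NIC array, against 27.8% of all kept symbols. The 2 differences ATRA+NIC minus NIC and NIC minus Control share that array.

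The 1 test that 4 arrays allow is an additive limma fit with a retinoic acid and a nicotinamide term over all kept symbols. It leaves 1 residual degree of freedom and takes its error from the departure from additivity. That error is then moderated by the errors of the other symbols, which gives 5.19 total degrees of freedom. The SE and p-values below therefore do not measure a spread between replicates. By this limma fit with Benjamini-Hochberg adjustment at 0.05, 0 members passed for retinoic acid, against 0.0137% of symbols that rose and 0.605% that fell. At an unadjusted p under 0.05 there were 4 members (Il1b, Il33, Il1f6 and Il1f10) and 1188 symbols, or 8.16% of those tested. The retinoic acid term of Il33 was 2.55 (SE 0.33, limma adjusted p = 0.0649) and the adjusted p lay between 9.15e-14 and 0.341 over the alternatives tried. That of Il1b was 1.52 (SE 0.29, limma adjusted p = 0.226, between 0.00717 and 0.565 over the alternatives). The nicotinamide term of Il1f10 was 2.47 (SE 0.30, limma adjusted p = 0.687). For nicotinamide 0 members and 0 symbols passed limma, and 1 member and 767 symbols had an unadjusted p under 0.05. With an intensity trend in the limma prior, 3 members rose (Il1b, Il33 and Il1f6) and 0 fell for retinoic acid, against 1.27% and 2.11% of symbols. For nicotinamide 1 rose (Il1f10) and 0 fell, against 0.639% and 0.22%. The trend draws the error of a symbol toward that of symbols of like intensity, and the lowest adjusted p of Il33 and of Il1b came from it. Il1b passed the filter only through the 2 arrays with retinoic acid and Il1f10 only through the 2 with nicotinamide, so both had to differ in order to be tested. The Il1f10 terms also rest on an ATRA value of 38.7, near the random level of 34.8.

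The 6 genes from Il1f8 to Il1rn lie side by side on chromosome 2 (chr2:24008691-24207005, MM9), in the order Il1f8, Il1f9, Il1f6, Il1f5, Il1f10 and Il1rn. Il1a and Il1b lie farther along the same chromosome, Il18 on chromosome 9 and Il33 on chromosome 19. Neighbours in the cluster did not share 1 pattern: Il1f10 was highest on NIC, while Il1f5 on one side of it was lowest there. Il1rn on the other side was lowest on Control in the mean of its 2 targets. Its brighter target was lowest on NIC, at 772 against 910 on Control.

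Patterns were set against those of 10857 other symbols above background on all 4 arrays, with predicted gene names left out. The 3 closest to Il33 were Lce3c, Lce3d and Akr1c18, at Euclidean distances of 0.23, 0.38 and 0.52 log2 units over the 4 arrays. Lce3c, a late cornified envelope gene, read 6969 on ATRA+NIC and 7194 on ATRA, against 1095 on NIC and 1345 on Control. The closest to Il1b were Dbil5, Cyp17a1 and Chil3, at 0.06, 0.16 and 0.21. Chil3, which encodes a chitinase-like protein of myeloid cells, read 248 on ATRA+NIC and 232 on ATRA, against 81.2 on NIC and 73.1 on Control. With 4 points a pattern, many symbols can come this close.

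Il1rl2 and Il1r1, the receptor chains for the IL-36 and IL-1 agonists, read lowest on the NIC array. Of 11 receptor and decoy genes, 5 were kept and 3 were under 2 times the random level on all arrays (Il18rap, the accessory chain for IL-18, and the receptor-like genes Il1rapl1 and Il1rapl2). None was at least 2-fold the same way in both retinoic acid or both nicotinamide differences. Il1rl2 read 1159 on ATRA+NIC and 1196 on ATRA, against 559 on NIC and 1102 on Control. Il1r1 read 436 on ATRA+NIC and 494 on ATRA, against 238 on NIC and 455 on Control. In both, the NIC array alone stood low, and NIC minus Control was -0.98 for Il1rl2 and -0.94 for Il1r1.

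Il1r2, the decoy receptor that binds IL-1 without signalling, read 542 on ATRA+NIC, 723 on ATRA, 793 on NIC and 752 on Control. Il1rap, the shared accessory chain, read 144 on ATRA+NIC, 122 on ATRA, 80.1 on NIC and 98.0 on Control, highest on the 2 arrays with retinoic acid. Sigirr, an inhibitory receptor of the family, read 277 on ATRA+NIC, 289 on ATRA, 301 on NIC and 447 on Control. Il1rl1 (ST2, the receptor for IL-33) read 49.99 on ATRA+NIC, 72.8 on ATRA, 34.4 on NIC and 67.8 on Control, above background on 1 array. Il18r1, the ligand-binding chain for IL-18, and Il18bp, its secreted decoy, were also above background on 1 array each, at 75.5 on ATRA+NIC for Il18r1 and 90.4 on NIC for Il18bp.

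**Figure D3:**
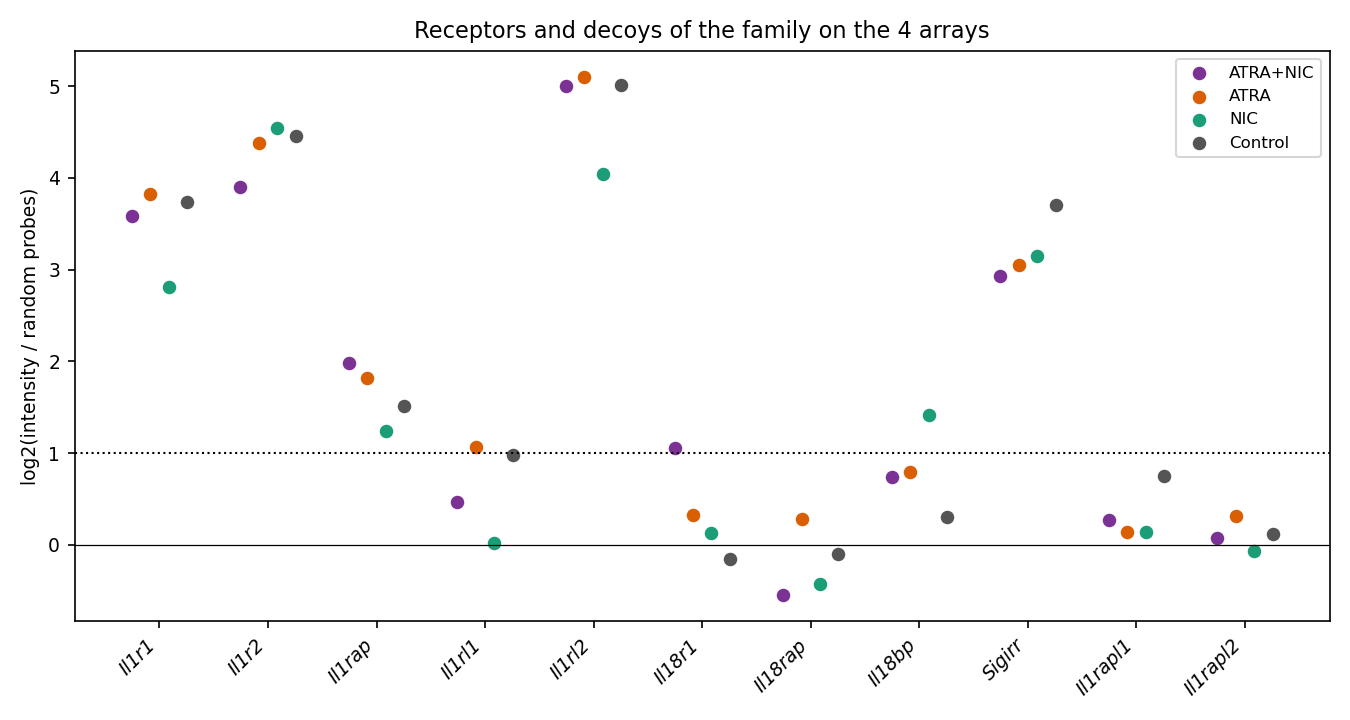
Intensity of the 11 receptor and decoy genes on the 4 arrays, as the log2 of the ratio to the random probes of the array; the dotted line is 2 times the random level. Il1rl2 and Il1r1 are lowest on NIC (559 and 238), and Il18rap, Il1rapl1 and Il1rapl2 lie under the dotted line on every array.

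Of 23 inflammasome and protease genes, 22 were on the array and 17 kept, with median differences of 0.27 for ATRA minus Control and 0.17 for ATRA+NIC minus NIC, and 0 of the 17 were at least 2-fold the same way in both. These genes include the inflammasome sensors and the proteases that cut the cytokines to active forms. With no filter there was 1 (Elane, neutrophil elastase), which is also in the neutrophil list and was above background on 1 array. Casp1, the protease that cuts IL-1β and IL-18, is named here after its values were seen, and read 353 on ATRA+NIC, 366 on ATRA, 314 on NIC and 399 on Control. Of 22 signalling genes downstream of the receptors, 20 were kept, with medians of 0.25 and 0.05 in the 2 retinoic acid differences, and 0 were 2-fold in both. Myd88, the adaptor that the receptors share, was chosen after its values were seen: it read 3229 on ATRA+NIC and 3225 on ATRA, against 1551 on NIC and 2261 on Control.

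Of 31 genes that IL-1 or IL-36 are known to induce in keratinocytes or that feed back on NF-kB, 24 were kept and 8 were at least 2-fold higher in both retinoic acid differences, against the 0.832% of all kept symbols given above, and 0 were lower. In all 17 of the 24 were above 0 in both, against 29.5% of all kept symbols. The list was chosen with earlier results of these data known, so these shares describe it and are not a test. Since 8 of the 24 were kept only through the arrays with retinoic acid, which raises these figures, the list is also given with no filter: the count was again 8, of 31, against 0.72% of all symbols. The median over the 31 was 0.60 for ATRA minus Control and 0.94 for ATRA+NIC minus NIC, against 0.04 and 0.0060 over all symbols, and over the 24 kept 0.78 and 1.32. None of the 24 passed limma for either term, and 0 were 2-fold the same way in both nicotinamide differences.

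Defb3, which encodes a β-defensin of epithelia, read 4959 on ATRA+NIC and 4433 on ATRA, against 116 on NIC and 1030 on Control. S100a8, an alarmin subunit of both neutrophils and stressed keratinocytes, read 24707 on ATRA+NIC and 24863 on ATRA, against 2280 on NIC and 7522 on Control. Its partner S100a9 had differences of 1.93 and 3.41. The NIC array lay below Control for each of these, and NIC minus Control was -3.15 for Defb3, -1.72 for S100a8 and -1.51 for S100a9. Cxcl5, a neutrophil chemokine, read 120 on ATRA+NIC and 79.9 on ATRA, and was not above background on NIC and Control. Mmp9, a matrix protease, had differences of 1.90 and 1.31, and Il19, a cytokine of the IL-10 family, 2.65 and 1.26. The remaining 2 of the 8, beyond those the naming rule takes, were Cxcl1 (1.08 and 2.41) and Lcn2 (1.06 and 2.06). The feedback genes Nfkbia and Tnfaip3, chosen after their values were seen, had 0.13 and 0.65 and 0.33 and -0.16.

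**Figure D4:**
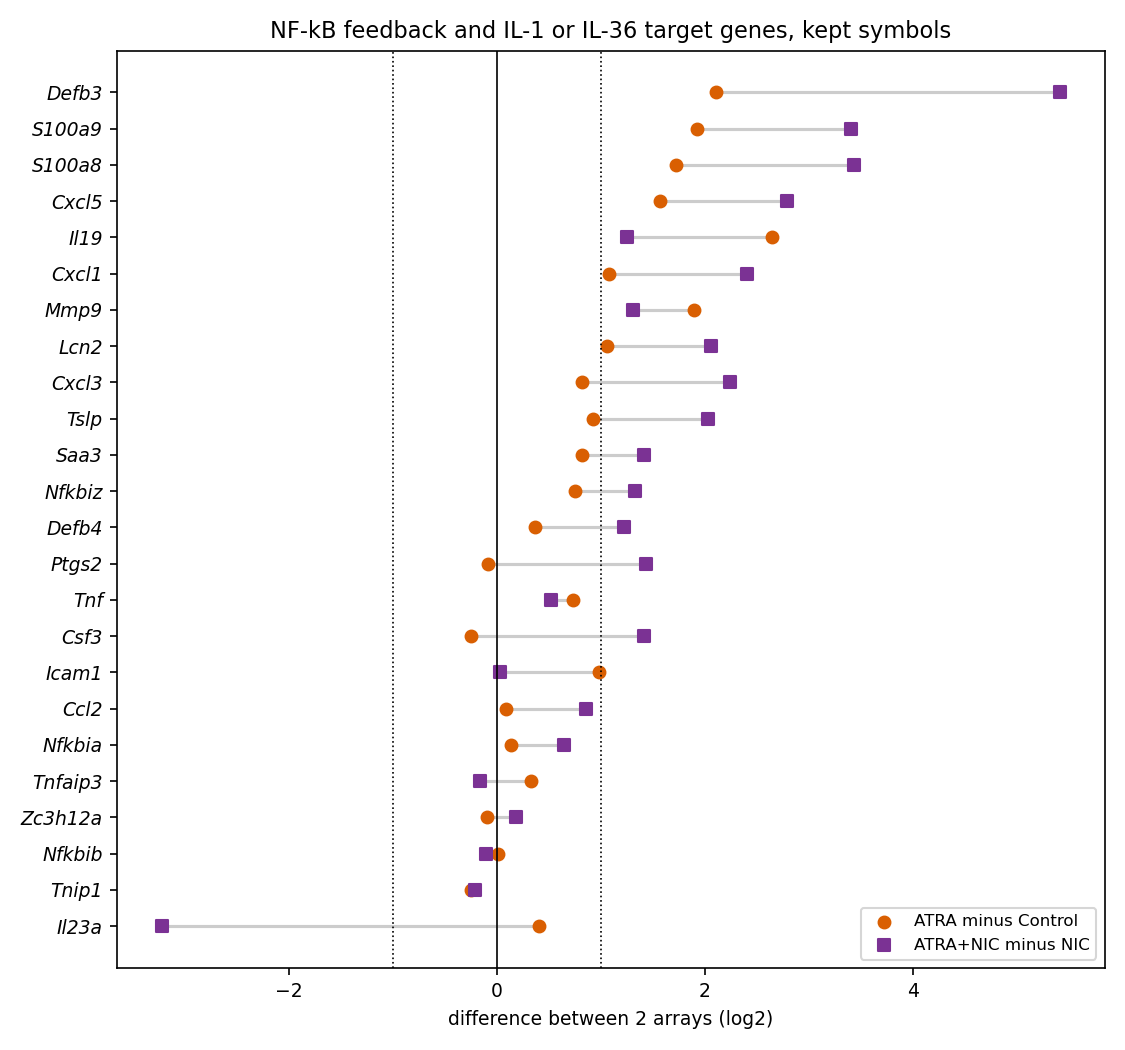
Differences in log2 units of the 24 kept NF-kB feedback and IL-1 or IL-36 target genes for ATRA minus Control (circles) and ATRA+NIC minus NIC (squares), with dotted lines at 2-fold; each point is a difference of 2 arrays with no error. In all, 8 genes are beyond 2-fold on the right with both symbols; Il19 is farthest among the circles (2.65) and Defb3 among the squares (5.42).

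Markers of some cell types read differently between the arrays, and their part in the results above was not tested. All 8 keratinocyte markers were kept, with summed intensities of 230215 on ATRA+NIC, 216980 on ATRA, 193674 on NIC and 217919 on Control, and 0 were 2-fold in both retinoic acid differences. Hair shaft and root sheath markers summed to 27558 on ATRA+NIC and 21790 on ATRA, against 197974 on NIC and 113264 on Control, and 9 of the 9 kept were at least 2-fold lower in both retinoic acid differences, 5 of which fell by limma. The 6 fibroblast markers, genes of the dermis, were all kept, although the title of the study names epidermis. Of these 4 were above 0 in both retinoic acid differences and 1 (Lum, 1.07 and 1.05) was at least 2-fold higher in both. Macrophage and dendritic cell markers summed to 30793 on ATRA+NIC, 42538 on ATRA, 22493 on NIC and 31219 on Control, with 0 of the 10 kept at least 2-fold in both, and these sums take in 11 genes on the array. The median differences of the 4 kept T, NK and B cell markers were 0.26 for ATRA minus Control and -0.08 for ATRA+NIC minus NIC, and with no filter, over 10 genes, -0.10 and -0.22. Those of the 4 kept endothelial markers were 0.24 and 0.57.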

How the data were processed

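RNA of mouse back skin was hybridised to NimbleGen 1-colour (Cy3) arrays, 1 array for each of ATRA+NIC, ATRA, NIC and Control. The authors deposited an intensity per target on the linear scale, an RMA value per the file names, summarised from 3 probes for 44155 of 44170 targets; the software is not given in the sources used here. RMA adjusts background, makes the arrays' distributions alike, so that a shift common to all genes would not be seen. The authors' deposited table of values holds the same intensities for 24323 targets and was used as an alternative. Another 8 columns of per-sample values were not used here.

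Log2 intensities, not normalised again, were averaged over the targets of a symbol. Symbols came from gene IDs for 39057 targets and from the array for 2829, and 2284 had none. Of 24171 symbols, 14552 at or above the array's median on at least 1 array were kept. Differences of arrays, counts at 2-fold and a limma fit (version 3.58.1, R 4.3.3; lmFit and eBayes, terms ATRA and NIC, Benjamini-Hochberg over kept symbols) were computed, and the fit was tested on simulated data. All members and receptors were named, and of each list up to 6 genes at least 2-fold the same way in both differences of a cream, by the smaller difference. The members and lists were chosen with earlier results of these data known. Promoters were RefSeq sequence of GRCm38.p6; array coordinates are MM9. The alternatives were 9: centring on array medians, cyclic loess, the brightest target, no filter, a filter at percentile 75, the authors' table, subtraction of the random level with a floor of 10, 1.5-fold in place of 2-fold, and an intensity trend in limma. The arrays' number limits the precision.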

Additional observations from a re-analysis of the deposited data

Results flagged for a closer look

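Several members had a difference for one cream that ran in opposite directions without and with the other cream. Each value is 1 array against 1 array, and the difference between them was not tested. For Il1f9 the nicotinamide difference was 0.50 with retinoic acid and -0.77 without it, 1.27 apart on the log2 scale. For Il33 it was 0.21 with and -0.50 without, 0.71 apart. For Il1b it was -0.13 with and 0.03 without, -0.16 apart. With the brightest target Il1b had the same direction in both, 0.12 with and 0.83 without. After subtraction of the random level it also had the same direction, -0.17 with and -0.06 without. Il1f5 differed both ways: for retinoic acid it had 0.50 with nicotinamide and -0.25 without, and for nicotinamide 0.05 with retinoic acid and -0.69 without, each 0.75 apart. With the brightest target its nicotinamide differences had the same direction, -0.06 with retinoic acid and -1.07 without. Il1a had 0.44 with nicotinamide and -0.06 without it for retinoic acid, and 0.33 with retinoic acid and -0.18 without it for nicotinamide, each 0.51 apart.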

How the results depend on the processing

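Il33 and Il1b kept their directions for retinoic acid, and Il1f10 for nicotinamide, under every alternative that held them. Some smaller differences changed sign with the brightest target. Il1rn went from 0.27 to -0.24 for NIC minus Control and Il18 from -0.15 to 0.02 for ATRA+NIC minus NIC. Il1b went from -0.13 to 0.12 for ATRA+NIC minus ATRA. The count of members at least 2-fold apart the same way in both retinoic acid differences was 2. It became 1 with the brightest target and 1 with the filter at percentile 75 (Il33 in each). At 1.5-fold it was 5, with Il1b, Il1rn, Il33 and Il1f6 higher and Il1f10 measured lower. The bound for Il1f10 was only 1.20-fold for ATRA against Control. After subtraction of the random level the count was 3 (Il1b and Il33 higher, Il1f10 lower). There the ATRA value of Il1f10 was the floor of 10, and the same 1.20-fold bound applies. The count for nicotinamide was 1, and 0 with the percentile 75 filter and 0 in the authors' table, neither of which holds Il1f10. By limma, members passing for retinoic acid were 1 with no filter (Il33, adjusted p = 0.0396), 1 with the percentile 75 filter (Il33, adjusted p = 0.00532), 2 in the authors' table (Il1b and Il33) and 3 with an intensity trend (Il1b, Il33 and Il1f6). For nicotinamide limma passed 1 with the trend (Il1f10, adjusted p = 1.51e-05). Over all symbols limma called 90 for retinoic acid, and 185 with the percentile 75 filter, 181 in the authors' table, 492 with the trend and 0 after subtraction of the random level, where 1061 had an unadjusted p under 0.05. For nicotinamide it called 0, and 125 with the trend. The causes were not tested. The limits given above for the errors of limma, for the filter and for the dim ATRA value of Il1f10 apply here too. With the brightest target Il1b gave 0.88 for ATRA+NIC minus NIC and 0.83 for NIC minus Control. No paired analysis was possible because each group has 1 array, and for the same reason no replicate could be left out. Signal over background limits Il1b, Il1f10 and the receptor and decoy genes that were above background on 1 array or on none.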

Other observations

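Of 13 listed genes linked to IL-33 and type 2 immunity, 9 were kept and 6 of these were below 0 in both retinoic acid differences, against 24.9% of all kept symbols, with a median difference of -0.31 for ATRA minus Control and -0.70 for ATRA+NIC minus NIC, and 0 were at least 2-fold higher in both. Il5 is among the 6 and was kept only through the NIC array, so its ATRA+NIC minus NIC had to be below 0. It read 57.6 on ATRA+NIC, 31.1 on ATRA, 126 on NIC and 32.8 on Control, above background on NIC only. With no filter the medians over the 13 were -0.31 and -0.02. This list, too, was chosen with earlier results of these data known. Retnla, a resistin-like gene of alternatively activated macrophages, read 2009 on ATRA+NIC and 2326 on ATRA, against 5797 on NIC and 7981 on Control. Ccl24, an eosinophil chemokine, had -1.21 in both differences, and these 2 were the ones at least 2-fold lower in both, against 1.89% of kept symbols. Arg1, which encodes arginase and also marks alternatively activated macrophages, was chosen after its values were seen and went the other way, with 5956 on ATRA+NIC and 4174 on ATRA, against 1573 on NIC and 2542 on Control. Areg, a growth factor gene, had 0.20 and 0.36. Il9 and Il13 were not above background on any array. Tslp, another epithelial cytokine tied to type 2 responses, was chosen in the same way and read 193 on ATRA+NIC and 185 on ATRA, against 47.2 on NIC and 97.7 on Control.

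Mast cells carry the IL-33 receptor. Their 8 markers summed to 7415 on ATRA+NIC and 8183 on ATRA, against 4147 on NIC and 4952 on Control. Median differences over the 7 kept were 0.75 for ATRA minus Control and 0.83 for ATRA+NIC minus NIC. Of the 7, 1 (Fcer1a) was kept only through the arrays with retinoic acid. With no filter the medians over the 8 were 0.60 and 0.72, against 0.04 and 0.0060 over all symbols.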
